A study of Mus musculus with 20 samples.

Results

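Histone marks were examined at the genes of the major histocompatibility complex (MHC), the cluster on mouse chromosome 17 that encodes antigen-presenting molecules. The class I genes were H2-D1, H2-Q4, H2-Q6 and H2-Q7, the class II genes were H2-Ab1, H2-Aa and H2-Eb1, and Cd74, a partner gene of class II on another chromosome, was added. Members were taken as all peaks of 8 deposited lists that overlapped 3 windows of the mm9 assembly. The class I window ran from 35.395 to 35.615 Mb and the class II window from 34.39 to 34.46 Mb of chromosome 17, and the Cd74 window from 60.955 to 60.98 Mb of chromosome 18. In all, 153 of 219055 listed peaks were members, of which 117 lay in the class I window, 28 in the class II window and 8 in the Cd74 window. The genes were selected on earlier peak calls of these same lists, for a higher H3K4me3 or H3K27ac and a lower H3K27me3 in adult than in fetal cells. Differences in those marks are therefore described and not tested.

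The lists came from chromatin immunoprecipitation and sequencing (ChIP-seq) of hematopoietic stem cells (HSCs) of B6129SF1 mice. Fetal cells were sorted from the liver at embryonic day 14.5 and adult cells from the bone marrow at 6 to 8 weeks, both by the phenotype Lin-Sca1+cKit+CD135-, with 50000 cells for each ChIP. Each of the 4 marks, H3K4me3, H3K27ac, H3K4me1 and H3K27me3, had 2 replicates per stage in the labels but 1 list per stage, which its title calls combined, so no value carries a replicate error. The labels give this sort as HSCs, a gate that also holds early multipotent progenitors, and marker genes were not checked because gene positions of mm9 were not used here.

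Class I molecules are carried by nearly all nucleated cells and present peptides from inside the cell to CD8 T cells. H2-D1 encodes a classical class I heavy chain, and H2-Q4, H2-Q6 and H2-Q7 encode non-classical Qa chains. Class II molecules present peptides taken up from outside, mainly on dendritic cells, macrophages and B cells. H2-Aa and H2-Ab1 encode the alpha and beta chains of the I-A molecule, H2-Eb1 the beta chain of I-E, and Cd74 the invariant chain that guides class II molecules through the cell. H3K4me3 marks active or poised promoters, H3K27ac active promoters and enhancers, and H3K4me1 enhancers and the surroundings of promoters. H3K27me3 is laid down by Polycomb at repressed genes, and its presence together with H3K4me3 is called bivalent.

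Promoters of the members are printed to show what the class I copies share, since these stand close together and resemble each other. The RefSeq table of GRCm38.p6 held 6 of the 8 members, without H2-Ab1 and Cd74. The 180 bases before each annotated start are given 5′ to 3′. Capitals mark matches to motifs on either strand. A match shows the letters alone and does not make a site a Y or X2 box. The motifs were CCAAT (as in the Y box) and TGACG (a CRE type motif, as in the X2 box). They were also the kappa B type motif (GGGGA and TCCCC with any 1 base between them) and GAAGTGAAA, an interferon response form. The last was chosen after the sequences had been read. A further interferon response motif, GAAA followed by any 2 bases and GAAA, was searched and matched none of the 6.
H2-D1: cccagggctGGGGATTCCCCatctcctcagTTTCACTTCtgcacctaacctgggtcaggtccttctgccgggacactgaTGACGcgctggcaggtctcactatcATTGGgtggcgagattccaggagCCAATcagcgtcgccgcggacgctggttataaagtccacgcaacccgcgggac
H2-Q4: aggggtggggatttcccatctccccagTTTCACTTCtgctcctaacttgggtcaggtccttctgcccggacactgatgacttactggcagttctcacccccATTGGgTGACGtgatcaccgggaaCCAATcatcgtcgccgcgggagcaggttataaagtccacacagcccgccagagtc
H2-Q6: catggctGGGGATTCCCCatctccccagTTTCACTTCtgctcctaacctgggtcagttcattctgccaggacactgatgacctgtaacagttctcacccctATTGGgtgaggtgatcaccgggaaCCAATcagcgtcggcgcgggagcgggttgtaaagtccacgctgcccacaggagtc
H2-Q7: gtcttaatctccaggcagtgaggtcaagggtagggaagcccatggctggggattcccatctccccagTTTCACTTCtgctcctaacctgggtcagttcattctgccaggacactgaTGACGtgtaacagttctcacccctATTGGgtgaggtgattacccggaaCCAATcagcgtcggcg
H2-Aa: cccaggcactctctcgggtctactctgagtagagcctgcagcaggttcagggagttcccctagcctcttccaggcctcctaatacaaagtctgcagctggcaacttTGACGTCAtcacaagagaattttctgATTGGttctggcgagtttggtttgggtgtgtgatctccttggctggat
H2-Eb1: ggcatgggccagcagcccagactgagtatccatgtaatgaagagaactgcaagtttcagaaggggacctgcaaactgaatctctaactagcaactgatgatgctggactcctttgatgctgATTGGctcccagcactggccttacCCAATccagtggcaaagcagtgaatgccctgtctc

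On GRCm38.p6 these stretches lie on the plus strand at chr17:35262914-35263093 for H2-D1, chr17:35379437-35379616 for H2-Q4, chr17:35424670-35424849 for H2-Q6, chr17:35438975-35439154 for H2-Q7 and chr17:34305687-34305866 for H2-Eb1, and on the minus strand at chr17:34287824-34288003 for H2-Aa. These positions cannot be set against the mm9 positions of the peaks. In the 250 bases before the start, CCAAT was found in all 6 promoters, and in 33.8% of 32851 promoters of the table. TGACG was found in H2-D1, H2-Q4, H2-Q7 and H2-Aa, and in 17.8% of the table. In H2-Aa it occurred on both strands in overlapping matches. The form GAAGTGAAA was present in all 4 class I promoters and in neither class II promoter, and in 0.402% of the table. The kappa B type motif was found in H2-D1 and H2-Q6, and in 15 promoters of the table (0.0457%). The other interferon motif was in 2.98% of the table. In local alignments H2-Q6 and H2-Q7 were identical at 205 of 211 aligned positions (97.2%), whereas H2-D1 shared 83.5% with H2-Q6 over 248 positions and 80.9% with H2-Q4 over 246. Reads from such copies can be placed at either one. How reads with several matches were placed is not given in the sources used here, so peaks are named by position and no peak is assigned to 1 of these genes. In the RefSeq table the protein-coding genes of the class I stretch follow each other as H2-D1, H2-Q1, H2-Q2, H2-Q4, H2-Q6, H2-Q7 and H2-Q10, and those of the class II stretch as H2-Ob, H2-Ab1, H2-Aa, H2-Eb1 and H2-Eb2. How far the outer genes of these rows lie inside the mm9 windows was not determined.

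The class I window carried wide H3K27me3 in the fetal list, and a longer row of H3K4me3 peaks with far shorter H3K27me3 in the adult lists. It held 3 fetal and 8 adult H3K4me3 peaks, which covered 3968 and 13012 bp of its 220 kb. H3K27ac covered 6597 bp in 3 fetal peaks and 10671 bp in 6 adult peaks. H3K27me3 had 54 fetal and 31 adult peaks, which covered 89834 and 10955 bp, or 40.8% and 4.98% of the window. The covered length of H3K4me3 was thus 3.28 times as long in adult cells, past the 2-fold limit set for a call. Among 6165 genome tiles of 220 kb with at least 200 bp of H3K4me3 at either stage, 4.15% were called higher in adult cells by that rule. The median ratio was 1.02 over the 5737 tiles with H3K4me3 at both stages. Tile medians of the other marks also leave out tiles with the mark at 1 stage only. H3K27ac was 1.62 times as long and was not called, while 2.67% of tiles were called higher in adult cells and the median tile ratio was 0.737. H3K27me3 was 8.20 times as long in fetal cells. Since 93.9% of 4301 tiles were called higher in fetal cells for this mark, that call is not particular to the window. The median fetal excess was 4.52 over the 2952 tiles with H3K27me3 at both stages.

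**Figure D1:**
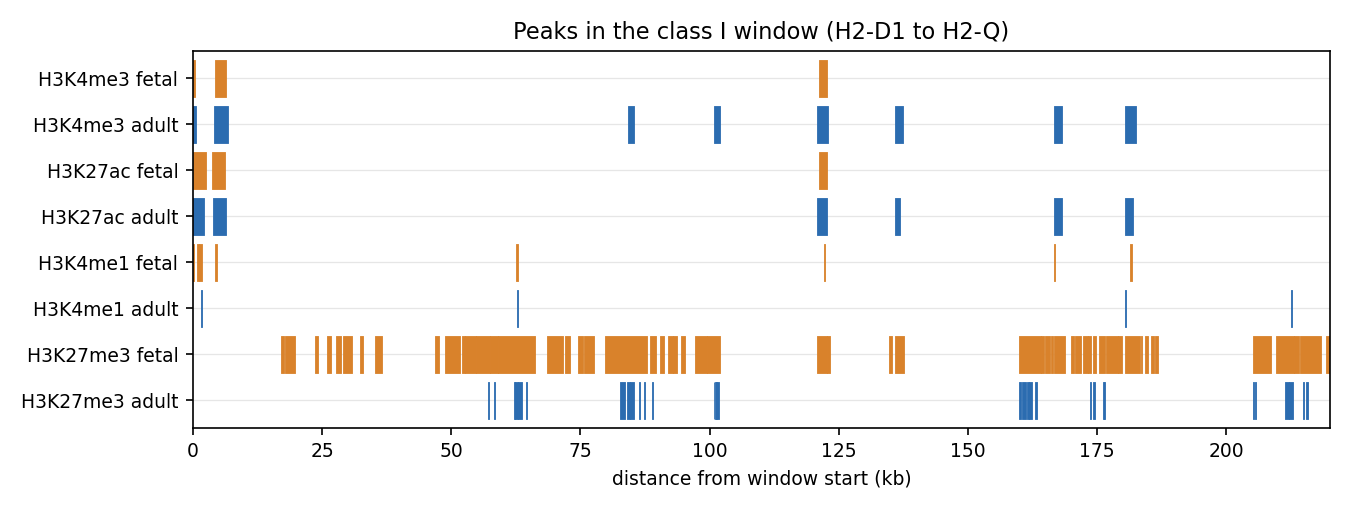
Peaks of the 4 marks in the class I window. The horizontal axis is the distance from the window start in kb, each row is 1 deposited list, and orange is fetal and blue adult. Adult H3K4me3 peaks outnumber fetal ones by 8 to 3, and fetal H3K27me3 covers 40.8% of the window.

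The peaks fell into 7 stretches separated by over 10 kb. The first, at 35395001 to 35401748, lies at the H2-D1 end. H3K4me3, H3K27ac and no H3K27me3 were listed there at both stages. Its main H3K4me3 peak spanned 2121 bp in the fetal list and 2604 bp in the adult list (35399145 to 35401748), with a score of 3100, a value that many peaks of both lists share, in both. Its H3K27ac peaks of 2605 and 2438 bp were also high in their own lists, at percentiles 88.5 and 96.2 of score. A smaller H3K4me3 region at 35394462 to 35395628 lay across the window start, with 851 bp fetal and 1167 bp adult. The first stretch was the one with active marks and no Polycomb mark at either stage.

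Further along, 4 adult H3K4me3 peaks with H3K27ac lay in 3 stretches between 35515698 and 35581768. At 35515859 to 35517969 both stages had H3K4me3, with 1458 bp in the fetal and 2111 bp in the adult list, and both had H3K27ac, with 1515 and 2005 bp. The other 3 H3K4me3 regions had no fetal H3K4me3 peak. They were at 35530798 to 35532439 (1642 bp), 35561551 to 35563268 (1718 bp) and 35575386 to 35577420 (2035 bp). Adult H3K27ac peaks of 967, 1538 and 1654 bp overlapped them, and no fetal H3K27ac peak did. All 4 of these regions carried fetal H3K27me3, over 2031, 1535, 1691 and 2035 bp of the region, and none carried adult H3K27me3. The fetal state thus differed within the group. The region at 35515859 had overlapping peaks of H3K4me3, H3K27ac and H3K27me3, and the other 3 had H3K27me3 without H3K4me3. Overlap of peaks from separate lists of bulk cells does not show that the marks lie together in the same cell.

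The remaining 2 adult H3K4me3 peaks had another combination. They lay at 35479218 to 35480391 (1174 bp) and 35495865 to 35496964 (1100 bp), without H3K27ac and without fetal H3K4me3. Fetal H3K27me3 covered both over their whole length, and adult H3K27me3 covered 1155 and 787 bp of them. By overlap of peaks they were bivalent in the adult lists. Their scores of 169.3 and 189.64 placed them at percentiles 18.2 and 19.8 of the adult list, below the 3 acetylated adult-only peaks, which stood at percentiles 35.3, 48.6 and 44.7.

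**Figure D2:**
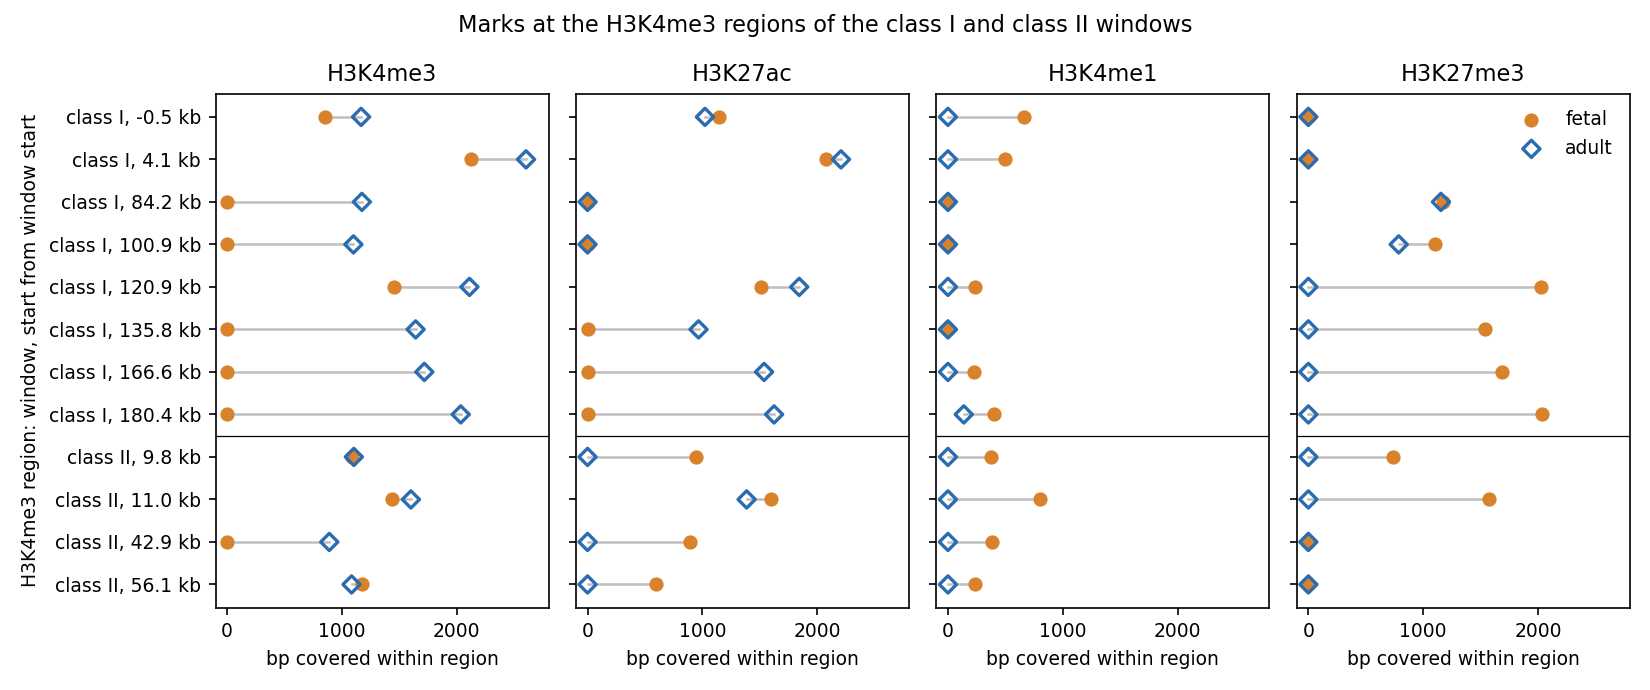
Covered length in bp of each mark (panels) within the H3K4me3 regions of the class I and class II windows, by distance from the window start in kb. Circles are fetal and diamonds adult lists. In 4 class I regions fetal H3K27me3 of 1535 to 2035 bp stands against 0 bp in the adult list, and in 3 class II regions H3K27ac is present in the fetal list and at 0 bp in the adult list.

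Set against all 18146 merged H3K4me3 regions of the genome, 5 of the 8 class I regions were in the adult list only, against 6.65% of all. Fetal without adult H3K27me3 was found at 4 of 8, against 8.32%, and H3K27ac in the adult list only at 3 of 8, against 5.65%. All 5 adult-only regions had fetal H3K27me3, which 241 of the 1206 adult-only regions in the genome had. The complete switch, with H3K4me3 and H3K27ac in the adult lists only and H3K27me3 in the fetal list only, was seen at 12 regions of the genome (0.0661%). Of these 12, 3 were the class I regions from 35530798 to 35577420. The other 9 stood singly, with none within 50 kb of another. Reads of similar class I copies can be placed at either one, so the 3 may not be separate signals, which was not tested. With peaks of at least the median score of their list, the switch was seen at 0 class I regions and at 27 of the genome. At the 3 regions of both stages, adult H3K4me3 was 1.37, 1.23 and 1.45 times as wide as fetal. The median over 15397 such regions was 1.02 and the 75th percentile 1.11. Because the genes were chosen for these differences, the counts describe the locus. In bulk cells, a mark in more cells and more of the mark in each cell cannot be told apart.

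**Figure D3:**
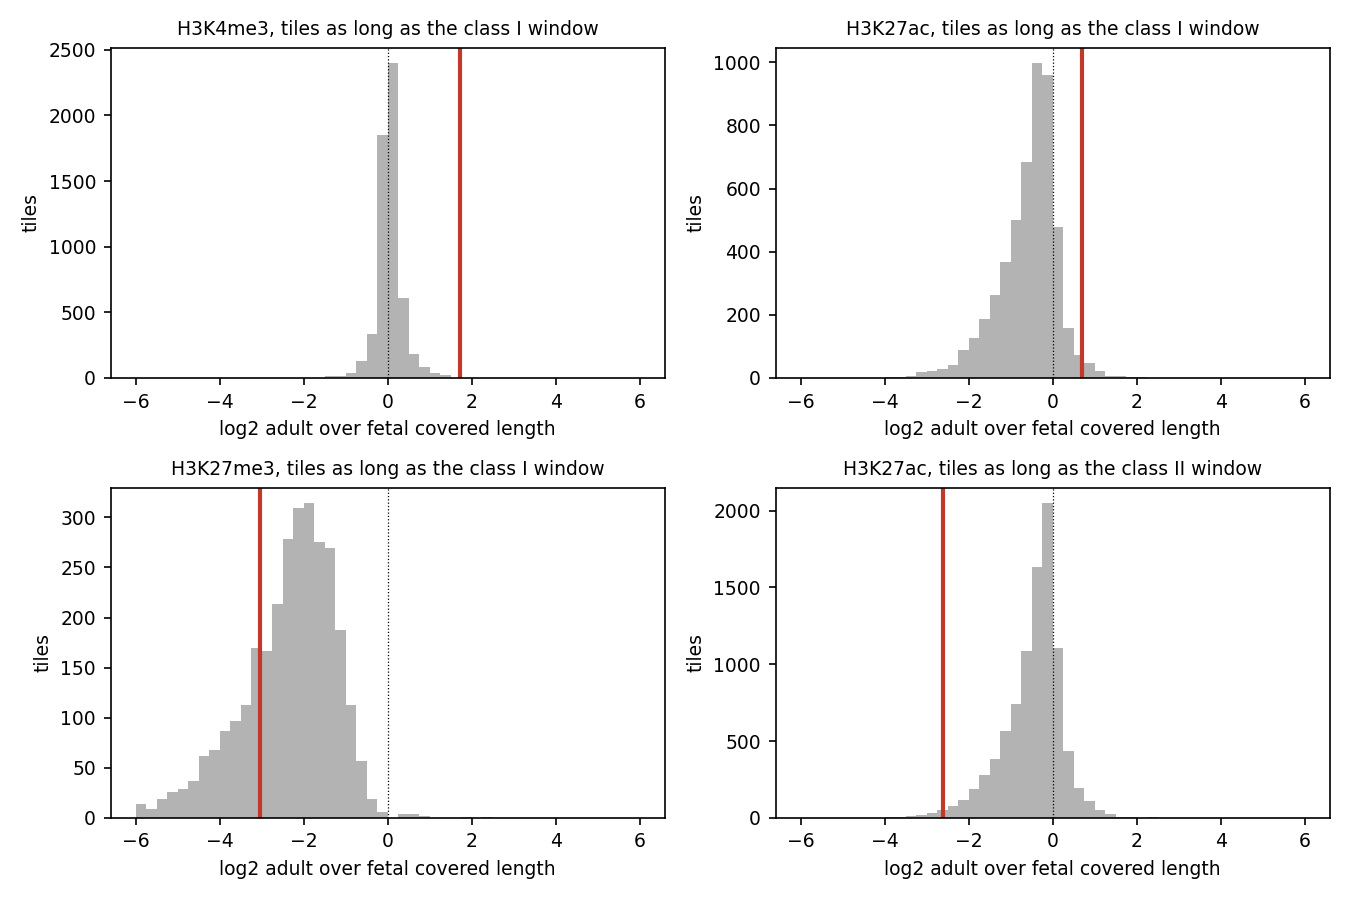
Number of genome tiles by log2 ratio of adult to fetal covered length, for tiles with the mark at both stages. Values beyond 6 in either direction stand in the end bins, and the red line is the window itself. H3K4me3 of the class I window, at 3.28 times, lies in the right tail, and its H3K27me3 lies within the bulk of tiles that are longer in fetal cells.

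Fetal H3K27me3 in the class I window was broad, with a median peak width of 1009.5 bp, and adult H3K27me3 was narrow, with 245 bp. Over the whole lists the medians were 1406 and 278 bp, so narrow adult peaks were a property of that list. All 31 adult peaks lay inside fetal ones, and each of their 10955 bp was shared. The longest stretch, from 35441797 to 35497074, was covered to 76.4% in the fetal list and to 9.87% in the adult list. It held the widest fetal peaks, at 35474782 to 35482804 (8023 bp) and 35454118 to 35461217 (7100 bp). The widest adult peak, at 35606297 to 35607165 (869 bp), was in the last stretch, from 35600098 to 35614867. No H3K4me3 or H3K27ac was listed there at either stage, and coverage by H3K27me3 was 85.3% and 16.3%. Fetal blocks from 35411976 to 35431650, nearest to the H2-D1 end, covered 8885 bp and had no adult H3K27me3 peak. Of 54 merged H3K27me3 regions in the window, 41 were in the fetal list only, 13 in both and 0 in the adult list only. Over 16537 such regions of the genome, 57.9% were in the fetal list only, 31.6% in both and 10.5% in the adult list only, against 75.9%, 24.1% and 0% in the window. Of the 41, 16 were at least 1 kb wide, from 1027 to 3139 bp.

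H3K4me1 was sparse in the class I window, with 8 fetal and 4 adult peaks over 2738 and 701 bp. The fetal excess of 3.91 times was the direction of 99.5% of 7032 tiles. It was smaller than the median excess of 19.0 times over the 3455 tiles with H3K4me1 at both stages. The window's excess turned with equal numbers of top-scoring peaks per stage, where 127 bp fetal stood against 701 bp adult. Of the 4 adult H3K4me1 peaks, 2 lay wholly within adult H3K27me3, at 35457645 to 35457823 and 35607491 to 35607691, without H3K4me3 or H3K27ac at either stage. Over the genome 3.44% of 12517 adult H3K4me1 peaks overlapped adult H3K27me3. These peaks were 179 and 201 bp wide and scored 67.8 and 60.97, around the adult list's median of 62.02.

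The class II genes differed from the class I genes. Their H3K4me3 was nearly the same at both stages, and their H3K27ac was shorter in adult cells. H3K4me3 covered 3698 bp in 3 fetal peaks and 4679 bp in 4 adult peaks, a ratio of 1.27, which was not called, and 5.44% of tiles of 70 kb were called higher in adult cells. H3K27ac covered 16948 bp in 8 fetal peaks and 2785 bp in 2 adult peaks, 6.09 times as long in fetal cells. Of 11907 tiles of 70 kb, 33.4% were called higher in fetal cells for this mark. The median excess was 1.25 over the 9192 tiles with H3K27ac at both stages. A gain of H3K27ac from fetal to adult cells, on which the genes were selected, was not seen in this window.

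Near the window's start, a pair of adjoining H3K4me3 regions was listed at both stages, at 34399798 to 34401004 (1087 bp fetal, 1104 bp adult) and at 34401014 to 34402614 (1433 and 1601 bp). The only H3K27me3 peak of the window was fetal, at 34400269 to 34402586 (2318 bp), and overlapped both. With fetal H3K27ac also on both, these regions had overlapping peaks of active and Polycomb marks in the fetal lists. Such marks need not lie together in the same cell. In the adult lists they had no H3K27me3, and H3K27ac was left at the second, at 34401094 to 34402479 (1386 bp). This was the part of the class II window that matched the lower adult H3K27me3 of the selection. The call for H3K27me3, from 2318 bp to 0, stands beside 92.9% of tiles called the same way.

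**Figure D4:**
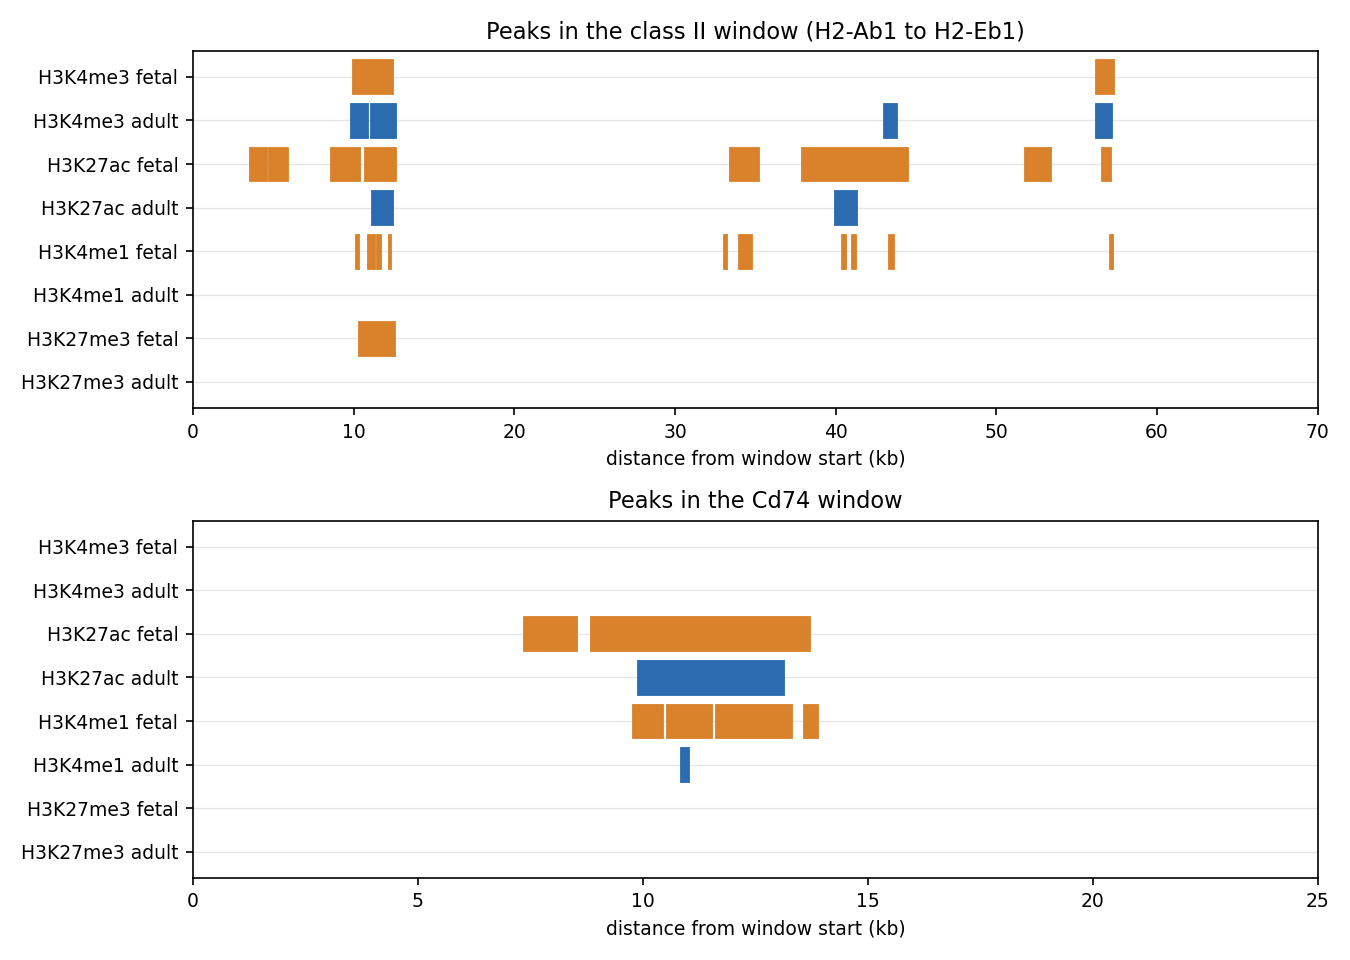
Peaks of the 4 marks in the class II window (top) and the Cd74 window (bottom), by distance from the window start in kb, with fetal lists in orange and adult lists in blue. Fetal H3K27ac forms 8 peaks in the class II window against 2 adult peaks, and no H3K4me3 or H3K27me3 is listed in the Cd74 window.

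The widest fetal H3K27ac peak of the class II window spanned 6611 bp at 34427870 to 34434480, at percentile 90.6 of its list. One adult peak of 1399 bp, at 34429920 to 34431318, lay inside it. At its far end an adult H3K4me3 peak of 890 bp, at 34432928 to 34433817, had no fetal counterpart and no adult H3K27ac. Its score of 65.28 was at percentile 3.90 of the adult list. The last H3K4me3 region, at 34446122 to 34447299, spanned 1178 bp fetal and 1084 bp adult. It had 596 bp of fetal H3K27ac, in a peak with a score of 50.54 near the lowest in the list, and no adult H3K27ac. In all, 3 of the 4 H3K4me3 regions had H3K27ac in the fetal list only, against 6.16% of all regions in the genome. Of the 8 merged H3K27ac regions, 6 were in the fetal list only, against 32.3% of 25578 in the genome, and 5 of these 6 were at least 1 kb wide, from 1149 to 1841 bp. H3K4me1 was listed in 10 fetal peaks over 3657 bp and in no adult peak, where 99.2% of tiles were called higher in fetal cells.

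Cd74 had no H3K4me3 and no H3K27me3 peak at either stage in its window. The nearest H3K4me3 peaks outside it were 18.6 kb before and 27.2 kb after in the fetal list. Its H3K27ac covered 6082 bp in 2 fetal peaks and 3268 bp in 1 adult peak, 1.86 times as long in fetal cells and not called, with 34.6% of 25 kb tiles called higher in fetal cells. The main fetal peak, at 60963818 to 60968708 (4891 bp), was at percentile 95.5 of its list. The adult peak at 60964871 to 60968138 lay inside it, at percentile 41.0 of the adult list. With peaks of at least the median score of each list, no adult H3K27ac peak was left. Fetal H3K4me1 covered 3751 bp in 4 peaks at the same place and adult H3K4me1 199 bp in 1 peak, and 99.1% of tiles were called higher in fetal cells. None of the selection's differences, a higher H3K4me3 or H3K27ac or a lower H3K27me3 in adult cells, was therefore seen for Cd74.

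**Figure D5:**
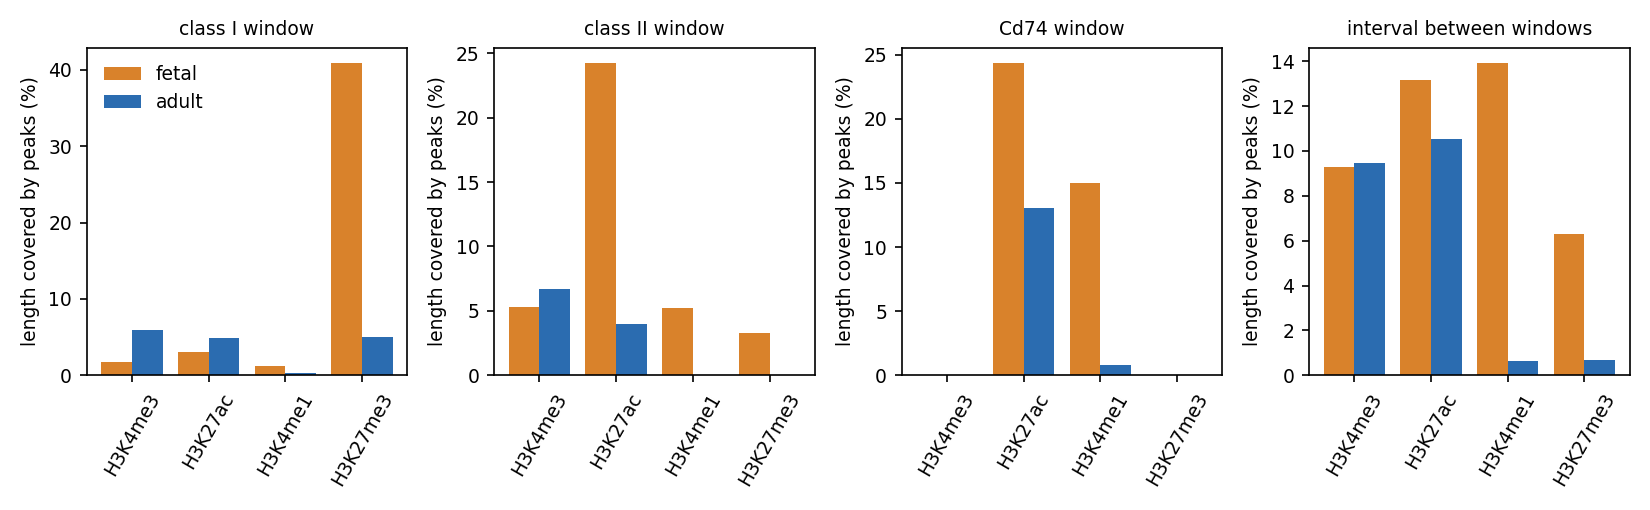
Share of each window covered by peaks, in percent of its length, for the 4 marks in the fetal (orange) and adult (blue) lists, with the interval between the class II and class I windows at the right. The vertical axes differ in range between panels. H3K27me3 covers 40.8% of the class I window in the fetal list, and H3K27ac covers 24.2% of the class II window.

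The interval of 935 kb between the class II and class I windows, which holds the class III genes, was measured in the same way. H3K4me3 covered 9.29% of it in the fetal list and 9.47% in the adult list, and 34 of its 36 regions were found at both stages. H3K27ac covered 13.1% and 10.5%, and H3K27me3 6.29% and 0.681%. The longer adult H3K4me3 of the class I window and the shorter adult H3K27ac of the class II window were not seen there at 2-fold, whereas H3K27me3 was 9.24 times as long in fetal cells, against 8.20 times in the class I window. Outside the window ends, the nearest fetal H3K27me3 peak followed the class I window by 5.25 kb, and the nearest fetal H3K27ac peak followed the class II window by 6.29 kb.

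The call of a peak depended on its score. With peaks of at least the median score of their list, H3K4me3 of the class I window covered 2121 bp fetal and 4715 bp adult. No peak of its adult-only regions was left. The adult excess came mainly from the region at 35515859, which had H3K4me3 at both stages. Its fetal peak, at percentile 47.9, fell just under the limit, and its adult peak passed. The complete switch was seen at 0 class I regions, and no class II H3K4me3 peak was left. A peak missing from a list means that none passed the authors' limit, not that the mark was absent, and the read depth is unknown.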

How the data were processed

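Peak lists of 4 histone marks in fetal and adult HSCs were used, 8 lists in all. Input libraries and single replicates were not analysed here. Bowtie2 2.2.2 and the mm9 build are named in the submitters' processing notes. Per the deposited lists, peaks are named with MACS at the start. The caller's version, settings and control are not given in the sources used here. The score of each peak is the authors' deposited value without a stated unit, at least 50 in every list. It was used within a list alone.

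Windows were read from the selection rule. Genes and windows were chosen with earlier results of these data known. Starts were changed to 1-based positions. Covered length was counted inside a window, and peaks or regions sharing 1 bp were taken as overlapping. A window was called when covered length differed at least 2-fold, or was 0 at one stage and at least 200 bp at the other. The same rule was applied to tiles of the window's length along chromosomes 1 to 19 and X, with at least 200 bp of the mark at either stage. Medians of tile ratios were taken over those tiles that had the mark at both stages. Peaks named are all H3K4me3 regions, the widest peaks of the other marks and one-stage H3K27 regions of at least 1 kb, the last given by count and range where many. Others, such as H3K4me1 peaks within H3K27me3, were named after their values were seen. With 1 list per mark and stage, no test was made. Alternatives are in the closing section. Other antigen presentation genes were left out, as no gene positions of mm9 were used. On simulated peaks, 200 of 200 planted differences among 17104 features were called, with 0 false calls. The planted differences were past the 2-fold limit, and all other peaks were the same in both simulated lists. This outcome checks the counting alone and gives no error rate for the deposited lists. Python 3.11.15, numpy 2.4.6, pandas 2.3.3, biopython 1.88 and matplotlib 3.10.9 were used.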

Additional observations from a re-analysis of the deposited data

How the results depend on the processing

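No paired analysis was possible because each mark had 1 list per stage, which its title calls combined. That such a list pools both replicates is assumed from this title. Leaving out 1 replicate could not be done either. Of 88 alternative values, 63 stayed within 1.5-fold of the reported value (or within the 95% binomial interval for shares of tiles), 24 moved and 1 reversed. Ratios for which no peak was left at either stage are not among the 88. A count of 0 that remained 0 was taken as having stayed, also where no H3K4me3 peak was left. Ratios are log2 of adult over fetal covered length, with 200 bp added to both. Where fewer peaks entered by construction, this is said, and otherwise the cause was not tested.

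With peaks of at least the median score of their list, the ratio was -3.28 in place of -4.27 for class II H3K4me1, -4.67 in place of -0.86 for Cd74 H3K27ac and -4.18 in place of -3.31 for Cd74 H3K4me1. Class I H3K4me3 regions then numbered 1 at both stages and 1 in the adult list only. Of them, 1 had fetal H3K27me3, 2 had adult H3K27ac, 0 had adult H3K27me3 and 0 showed the complete switch. The region then in the adult list only was that at 35515859 to 35517969, which had H3K4me3 at both stages in the full lists. In the class II window 0 regions were at both stages, 0 in the adult list only, and 0 had fetal H3K27ac, fetal H3K27me3 or adult H3K27ac, since no H3K4me3 peak was left. Over the genome 27 regions showed the complete switch in place of 12. With equal numbers of top-scoring peaks from both stages, the ratio for class I H3K4me1 reversed, from -1.71 to 1.46, and no class II H3K4me1 peak was left at either stage. Merging peaks within 1 kb gave -4.87 for class II H3K4me1. Widening the windows by 10 kb and requiring 500 bp of overlap moved no value past these limits.

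The share of tiles called, in the order class I H3K4me3 and H3K27ac higher in adult, class I H3K27me3 and class II H3K27ac higher in fetal cells, was 7.28%, 4.13%, 97.7% and 45.0% with a fold of 1.5, and 4.81%, 6.09%, 96.1% and 23.9% with equal numbers of peaks. At a fold of 1.5 class I H3K27ac was called higher in adult cells.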
